A study of Mus musculus with 6 samples.

Results

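The transforming growth factor beta (TGF-beta) system was followed through its 3 ligand genes (Tgfb1, Tgfb2, Tgfb3), its 3 receptor genes (Tgfbr1, Tgfbr2, Tgfbr3) and the 4 genes for latent TGF-beta binding proteins (Ltbp1, Ltbp2, Ltbp3, Ltbp4). These genes were chosen by name, and all 10 were found among the 31055 genes of the count matrix. The cells were EGFP-positive non-myocytes of the heart, measured by single-cell RNA-seq, and both groups were C57BL/6 mice between 3 and 6 months old. The Dsp_het group held 3 libraries of genotype Wt1CreERT2:Rosa26mTmG:DspW/F, with 1 conditional allele of Dsp, the gene for the desmosomal protein desmoplakin. The control group held 3 libraries of genotype Wt1CreERT2:Rosa26mTmG. Mice of both groups thus carried the tamoxifen-dependent Cre driven from Wt1, a gene of the epicardium that is also active in some endothelial cells, and the reporter that turns on membrane EGFP after Cre has acted. The labels call the cells epicardial-derived and do not say how many animals made up a library, so the p-values below measure the spread between these libraries, which may be technical.

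TGF-beta ligands are secreted as inactive complexes. The ligand's own propeptide holds it latent, and latent binding proteins tie that complex to fibrillin-rich matrix until integrins or proteases release it. Free ligand joins the type II receptor TGFBR2 with the type I receptor TGFBR1, which phosphorylates SMAD2 and SMAD3, while betaglycan, the product of Tgfbr3, is a co-receptor that presents ligand. LTBP1 and LTBP3 carry the latent ligands, LTBP4 carries mainly TGF-beta 1 and also acts in elastic fibre assembly, and LTBP2 does not bind latent TGF-beta. In the heart the pathway is known for valve development and for fibroblast activation and fibrosis.

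In build GRCm38, the annotation places Tgfb1 on chromosome 7, 25687002 to 25705077 (plus strand), Tgfb2 on chromosome 1, 186622792 to 186705989 (minus strand) and Tgfb3 on chromosome 12, 86056745 to 86079041 (minus strand). The receptor genes are Tgfbr1 on chromosome 4, 47353222 to 47414931 (plus strand), Tgfbr2 on chromosome 9, 116084293 to 116175360 (minus strand) and Tgfbr3 on chromosome 5, 107106570 to 107289629 (minus strand). The binding protein genes are Ltbp1 on chromosome 17, 75005568 to 75392512 (plus strand), Ltbp2 on chromosome 12, 84783212 to 84876532 (minus strand), Ltbp3 on chromosome 19, 5740904 to 5758532 (plus strand) and Ltbp4 on chromosome 7, 27305136 to 27337692 (minus strand). Tgfb3 overlaps Ttll5 on the opposite strand, and whether counting used the strand is unknown here, so reads of overlapping genes may not be told apart.

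The stretches before the starts of Tgfb1 and Tgfb2 are shown because these ligands had opposite class patterns. The 250 bases upstream of each RefSeq start are printed 5′ to 3′ on the gene's strand (build GRCm38.p6; Tgfb1 on the plus and Tgfb2 on the minus strand). Capitals mark matches, on either strand, to the TATA box TATAAA, the GC box GGGCGG and the E-box CACGTG.
Tgfb1, chr7:25686752-25687001: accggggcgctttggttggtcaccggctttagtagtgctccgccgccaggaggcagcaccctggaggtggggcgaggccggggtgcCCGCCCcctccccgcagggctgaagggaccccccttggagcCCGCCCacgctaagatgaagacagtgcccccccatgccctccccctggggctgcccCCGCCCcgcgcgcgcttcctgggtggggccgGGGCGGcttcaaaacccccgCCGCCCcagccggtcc
Tgfb2, chr1:186705990-186706239: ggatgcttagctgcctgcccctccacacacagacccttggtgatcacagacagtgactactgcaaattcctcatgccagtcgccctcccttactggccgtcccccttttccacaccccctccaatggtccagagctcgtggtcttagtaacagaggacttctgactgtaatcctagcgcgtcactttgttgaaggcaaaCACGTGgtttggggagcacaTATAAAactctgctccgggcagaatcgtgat
The Tgfb1 window was 75.2% G or C, against a median of 52.4% over the 32851 promoter windows of the table, and held 5 GC boxes and no TATA box. The Tgfb2 window was 53.6% G or C and held no GC box, 1 TATA box that begins 31 bases before the start and 1 E-box. The AP-1 site TGAGTCA was also searched and has no match in either window. Over all windows, 12.4% held the TATA box, 32.7% the GC box, 6.02% the E-box and 4.46% the AP-1 site. These matches describe letters and are not evidence of binding.

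After filtering, 12661 cells were kept, with 1066 to 2967 cells and 6916398 to 15252012 UMIs (unique molecular identifiers, each counting 1 captured transcript) per library. Identical cell barcodes occurred in several libraries: 1689 of the 13183 distinct barcodes did so, and each was counted only in the library that held most of its UMIs, except 3 that no library held for the most part and that were left out. This left out 41.7% of the barcodes of Dsp_het library 2, 49.0% of Dsp_het library 3 and 17.4% to 25.6% of each other library. Against the label of epicardial-derived cells, 9536 cells (75.3%) were endothelial-like by their markers, 1219 (9.63%) fibroblast-like, 600 (4.74%) epicardial-like, 221 macrophage-like and 212 pericyte-like, while 171 cardiomyocyte-like, 60 cycling and 642 unnamed cells are not described further. Of the 17 endothelial, 17 fibroblast, 17 epicardial, 14 macrophage and 11 pericyte markers measured, all but Upk3bl of the epicardial list were highest in the class they name. The classes were named from these same lists, so this order was largely set by the naming. Cdh1 of the epicardial list was at only 0.33 CPM in epicardial-like cells. Levels are given in CPM, the UMIs of a gene over all UMIs of the class in a library, scaled to a common total. Dsp in epicardial-like cells was 7.26, 7.25 and 9.44 CPM in Dsp_het libraries, against 12.0, 19.95 and 17.5 CPM in control libraries, on 4 to 18 UMIs per library. The labels do not say which part of Dsp is conditional, so these counts may not read the deleted part.

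Among these 5 classes, the level of Tgfb1 was highest in macrophage-like and endothelial-like cells, and the levels of Tgfb2 and Tgfb3 in fibroblast-like and epicardial-like cells. Class levels are means ± SD over the libraries with at least 20 cells of the class. The clusters come from these same cells, so class differences are described and not tested. Tgfb1, the ligand most tied to fibrosis and immune control, was at 157 ± 9.77 CPM in endothelial-like cells (n = 6), 197 ± 34.5 CPM in macrophage-like cells (n = 5) and 118 ± 34.0 CPM in pericyte-like cells (n = 4). It was at 29.5 ± 17.5 CPM in fibroblast-like and 11.7 ± 5.16 CPM in epicardial-like cells (n = 6 each). Its level in endothelial-like cells was 5.33 times that in fibroblast-like and 13.5 times that in epicardial-like cells, in the same direction in 6 of 6 libraries, with ranges that did not overlap. Macrophage-like cells were above endothelial-like cells in 5 of 5 libraries, but the ranges overlapped. Pericyte-like cells also held the endothelial marker Pecam1 at 365 CPM, against 689.7 CPM in endothelial-like cells, and the part of endothelial RNA in their Tgfb1 level was not tested.

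Tgfb2, the ligand required for heart valve and outflow development, was at 68.4 ± 12.6 CPM in fibroblast-like and 65.3 ± 27.98 CPM in epicardial-like cells, 51.8 ± 16.9 CPM in pericyte-like cells, 16.1 ± 2.65 CPM in endothelial-like cells and 3.46 ± 3.58 CPM in macrophage-like cells. Fibroblast-like cells exceeded epicardial-like cells in 4 of 6 libraries, so this pair had no steady order, while both exceeded endothelial-like cells in 6 of 6 libraries without overlap. Tgfb3, whose loss in mice leaves a cleft palate, was at 47.9 ± 10.1 CPM in epicardial-like cells and 37.0 ± 10.7 CPM in fibroblast-like cells, in this order in 6 of 6 libraries although the ranges overlapped. It was at 18.9 ± 6.19 CPM in pericyte-like and 5.70 ± 1.10 CPM in endothelial-like cells, and macrophage-like cells gave 1 UMI of Tgfb3 over 5 libraries.

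Within endothelial-like cells, Tgfb2 was concentrated in 1 arterial cluster. The 1003 cells led by Gja4, Alox12 and Hey1, of which Gja4 and Hey1 are arterial genes, had Tgfb2 at 107 ± 29.5 CPM (n = 6), with 102, 145 and 131 CPM in Dsp_het libraries and 92.6, 109 and 61.4 CPM in control libraries. The genotypes overlapped. In 7 of the other endothelial-like clusters mean Tgfb2 was 0.928 to 11.2 CPM, in the cluster led by Rbp7, Esm1 and Cxcl12 it was 14.9 ± 9.18 CPM, and in the 134 cells led by Cytl1, Plvap and Vwf it was 44.6 ± 28.03 CPM over the 4 libraries with enough cells. Tgfb1 was present in all of them, lowest in the Cytl1 cluster (102 ± 41.3 CPM) and in the cluster led by Serpina1b and Vwf (104 ± 11.7 CPM), whose Nr2f2 is a venous gene, and highest in the cluster led by Apln and Kit (220.0 ± 21.9 CPM). Tgfb3 was highest in that venous cluster (12.2 ± 5.35 CPM), with a range that overlapped other clusters.

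**Figure D1:**
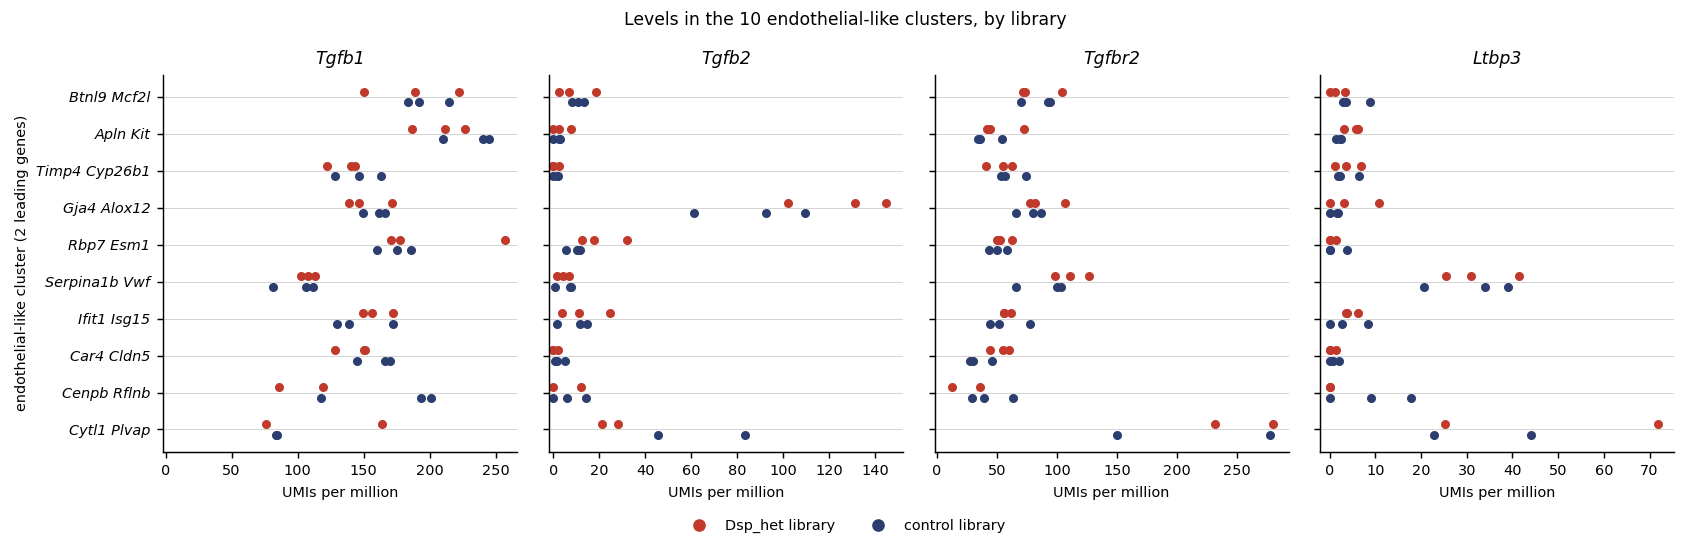
Levels (CPM) of Tgfb1, Tgfb2, Tgfbr2 and Ltbp3 in the 10 endothelial-like clusters, named by leading genes, with 1 point per library that had at least 20 cells (red Dsp_het, blue control). Tgfb2 stood at 61.4 to 145 CPM in the Gja4 cluster, Tgfbr2 at 149.7 to 279 CPM in the Cytl1 cluster, and Ltbp3 at 20.7 to 41.4 CPM in the Serpina1b cluster and 22.8 to 71.8 CPM in the Cytl1 cluster.

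The receptors differed in the classes that held them. Tgfbr1, the type I receptor, was at 136 ± 28.6 CPM in fibroblast-like, 75.3 ± 7.41 CPM in macrophage-like and 26.1 ± 2.86 CPM in endothelial-like cells, and these 3 ranges were apart. It was at 22.1 ± 10.6 CPM in epicardial-like cells, which overlapped endothelial-like cells, and at 14.8 ± 10.7 CPM in pericyte-like cells. Tgfbr2, the type II receptor that binds ligand first, was at 156 ± 18.4 CPM in macrophage-like, 133 ± 12.1 CPM in epicardial-like and 132 ± 23.8 CPM in fibroblast-like cells, whose ranges overlapped. In endothelial-like cells it was at 72.1 ± 14.7 CPM, below fibroblast-like cells in 6 of 6 libraries without overlap, although the Cytl1 cluster had 235 ± 60.7 CPM (n = 4). Tgfbr3 was at 127 ± 19.0 CPM in fibroblast-like and 89.4 ± 14.7 CPM in epicardial-like cells, in that order in 6 of 6 libraries with overlapping ranges, and at 27.5 ± 13.8 CPM in pericyte-like, 20.7 ± 3.50 CPM in endothelial-like and 4.15 ± 4.28 CPM in macrophage-like cells. Epicardial-like and fibroblast-like cells thus overlapped for Tgfbr2, while Tgfbr1 was 6.17-fold lower in epicardial-like cells, without overlap.

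The genes of the latent binding proteins also differed between classes. Ltbp3 was at 172 ± 33.5 CPM in epicardial-like and 107 ± 16.2 CPM in fibroblast-like cells, higher in epicardial-like cells in 6 of 6 libraries with overlapping ranges, and at 8.91 ± 3.82 CPM in endothelial-like cells, 12.0-fold below fibroblast-like cells. Among endothelial-like clusters it was at 41.0 ± 22.7 CPM in the Cytl1 cluster (n = 4) and at 31.9 ± 7.94 CPM in the venous cluster, with 25.4, 30.9 and 41.4 CPM in Dsp_het libraries and 34.0, 39.1 and 20.7 CPM in control libraries in the venous cluster, where the genotypes overlapped. Ltbp1 was at 68.5 ± 17.9 CPM in fibroblast-like, 29.7 ± 13.02 CPM in pericyte-like, 23.7 ± 4.31 CPM in endothelial-like and 6.35 ± 4.74 CPM in epicardial-like cells, 10.8-fold lower in epicardial-like than in fibroblast-like cells. Ltbp4 was at 1255 ± 172 CPM in fibroblast-like, 732 ± 99.2 CPM in epicardial-like, 642 ± 48.9 CPM in pericyte-like, 538 ± 53.2 CPM in endothelial-like and 52.7 ± 30.3 CPM in macrophage-like cells. Ltbp2 had 62 UMIs in all, of which 30 were in epicardial-like and 25 in fibroblast-like cells. Macrophage-like cells had 0, which allows up to 3.99 to 14.2 CPM in the 5 libraries (a floor of 3 UMIs, for counting error only). A fibroblast-like cluster of 65 cells led by Ccl11, Igfbp3 and Nbl1 had pooled levels of 212 CPM for Ltbp1 and 265 CPM for Tgfbr3, against 64.1 and 120.1 CPM in the larger fibroblast-like cluster, but 54 of its cells came from Dsp_het library 1.

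**Figure D2:**
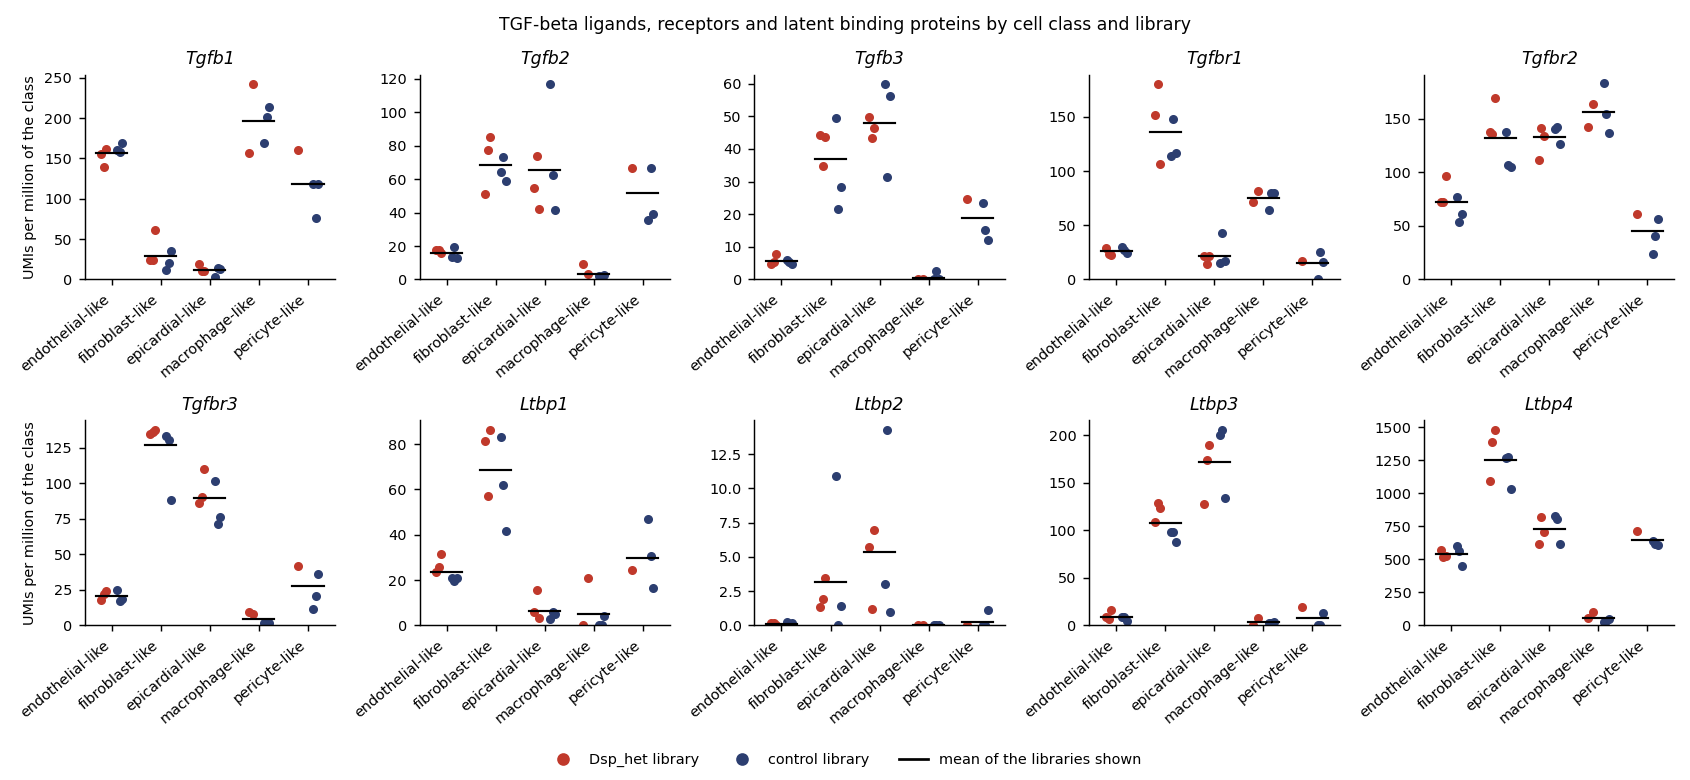
Level of each gene (y axis, CPM) in 5 cell classes, 1 point per library with at least 20 cells of the class (red Dsp_het, left; blue control, right) and a line at the mean. Tgfb1 was at 157 CPM on average in endothelial-like and 29.5 CPM in fibroblast-like cells, and 8 of the 10 genes were higher in fibroblast-like than in endothelial-like cells in all 6 libraries.

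Set against endothelial-like cells, 8 of the 10 genes were higher in fibroblast-like cells in every library (all but Tgfb1 and Ltbp2) and 1 was lower (Tgfb1). Epicardial-like cells had 7 genes higher and 2 lower (Tgfb1 and Ltbp1) than endothelial-like cells in every library. Ltbp2 was among the 7, with only 1 epicardial-like UMI in each of Dsp_het library 2 and control libraries 1 and 3. Its 62 UMIs in all lie below the 100 UMIs asked of the genes given next for scale. For scale, of the 12391 genes with at least 100 UMIs, 23.4% were higher and 35.6% lower in fibroblast-like cells in every library, and 22.9% were higher and 30.7% lower in epicardial-like cells. Among other pathway genes, 21 of 27 activators and extracellular controls and 22 of 33 target genes were higher in fibroblast-like than in endothelial-like cells in every library, while 8 of 12 accessory receptors and 12 of 25 SMAD genes were lower. Some list genes are also markers by which the classes were named, so their direction was set by the naming. These are Dcn (activators), Col1a1, Col1a2 and Col3a1 (target genes) and Eng (accessory receptors). The 17 fibroblast markers summed to 178 to 316 CPM in Dsp_het libraries and 221 to 284 CPM in control libraries in endothelial-like cells, and in fibroblast-like cells to 61260 to 64950 CPM in Dsp_het libraries and 58670 to 72870 CPM in control libraries.

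Endothelial-like cells, which were most of the cells, held 81.5% ± 6.60 of all Tgfb1 UMIs (SD, n = 6 libraries), 40.2% ± 10.95 of Tgfb2 UMIs and 29.4% ± 12.5 of Tgfb3 UMIs. They held 53.1% ± 10.9 of Tgfbr2 UMIs and 16.8% ± 7.31 of Ltbp3 UMIs. For Tgfb2 the endothelial-like share was 32.2% ± 9.61 in Dsp_het and 48.3% ± 3.69 in control libraries (n = 3 each), and the epicardial-like share was 23.8% ± 0.938 in Dsp_het and 14.8% ± 3.17 in control libraries. For Tgfb1 the endothelial-like share was 80.0% ± 9.58 in Dsp_het and 83.04% ± 3.17 in control libraries. These shares follow both the level per class and how many cells of each class were sorted.

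**Figure D3:**
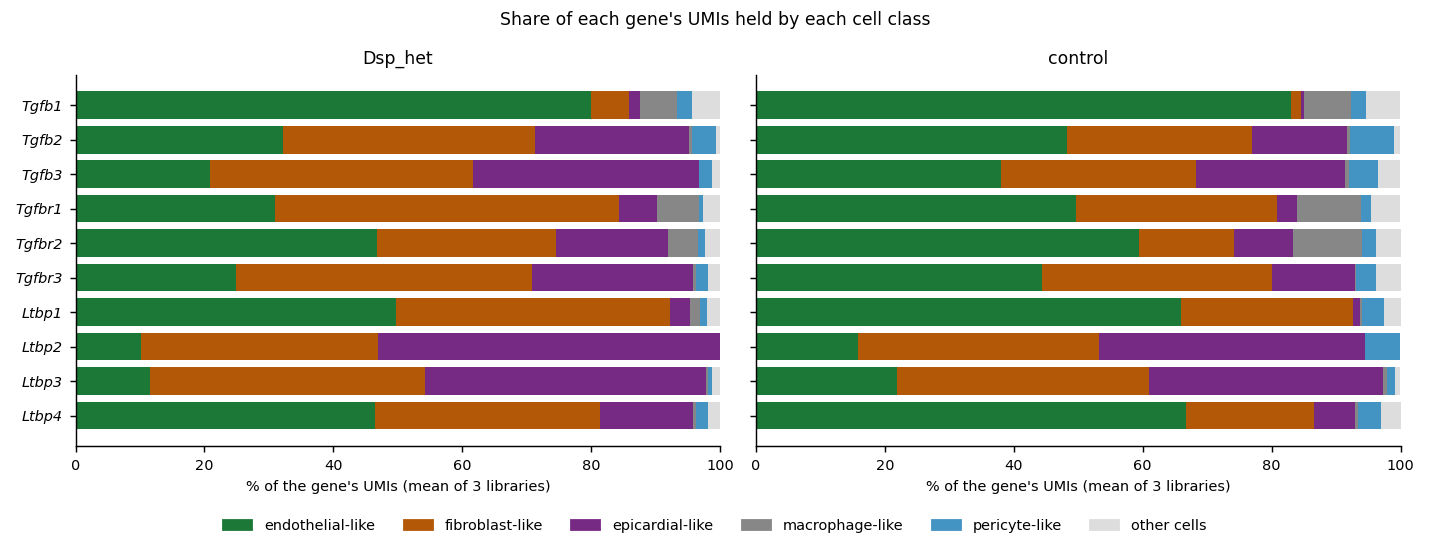
Share of each gene's UMIs held by each cell class (percent, mean of 3 libraries), Dsp_het on the left and control on the right. Endothelial-like cells held 80.0% of Tgfb1 UMIs in Dsp_het and 83.04% in control libraries, and 11.6% of Ltbp3 UMIs in Dsp_het and 22.0% in control libraries.

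The genes with the most similar pattern over the 31 class-by-library sums (the 5 classes above and, in 4 libraries, a cardiomyocyte-like class of 171 cells) were sought among 8521 genes with a mean of at least 10 CPM. Pearson's r is given as a description, since the points share libraries and classes. Tgfb1 was closest to Lyn (0.95), Adgre5 (0.94) and Sh2b3 (0.94). Tgfb2 was closest to Htra1 (0.95), Loxl2 (0.93) and Izumo4 (0.92), and Tgfb3 to Meis2 (0.96), Nbl1 (0.95) and S100a11 (0.94). Among receptors, Tgfbr1 was closest to S1pr2 (0.83), Pld3 (0.82) and Lsp1 (0.81), Tgfbr2 to Metrnl (0.93), Ifi204 (0.91) and Notch2 (0.89), and Tgfbr3 to Fbln2 (0.93), Gstm1 (0.93) and Fhl1 (0.92). Over the same points Tgfb2 and Tgfb3 had r = 0.82 with each other and Tgfbr3 had r = 0.87 with Ltbp4, while Tgfb1 had r = -0.65 with Tgfb2 and -0.78 with Ltbp3.

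Over all kept cells, 6 of the 10 genes had Dsp_het and control libraries that did not overlap, and none passed the test. No gene of the 10 reached an adjusted p of 0.05 in edgeR's quasi-likelihood test, nor did any of the 12996 genes tested (0.0% called), while DESeq2 called 383 (2.95%). An unadjusted p under 0.05 was found for 7 of the 10 genes and for 1638 of all genes (12.6%). Ltbp3, with the largest difference, was at 59.9, 37.1 and 61.0 CPM in Dsp_het libraries, against 23.0, 26.5 and 21.9 CPM in control libraries. Every Dsp_het library was above every control library, with a log2 fold change of 1.15 ± 0.20 (SE) and an edgeR adjusted p of 0.131. Ltbp3 passed in DESeq2 (adjusted p = 8.97e-05), with no filter on low counts (edgeR adjusted p = 0.0428) and without Dsp_het library 2 (1.34, edgeR adjusted p = 0.0314), and its adjusted p ran from 8.97e-05 to 0.466 over the alternatives. Of all genes, 65 of 20056 were called with no filter and 154 of 13380 without Dsp_het library 2. With shared barcodes left in every library that held them, the Ltbp3 log2 fold change was 1.05 (edgeR adjusted p = 0.0846), that of Tgfbr3 0.70 (0.165), of Tgfb2 0.48 (0.204) and of Tgfb1 -0.37 (0.247). As each sum mixes cell classes, fewer cells of a type and less RNA per cell cannot be told apart in it.

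Tgfb1 was the gene with the lower direction. It was at 92.7, 114 and 126 CPM in Dsp_het libraries, against 142, 137 and 144 CPM in control libraries. The groups did not overlap, and the log2 fold change was -0.36 ± 0.13 (edgeR adjusted p = 0.305). Tgfbr3 was at 68.1, 41.8 and 54.6 CPM in Dsp_het libraries, against 37.1, 30.4 and 29.7 CPM in control libraries, again apart, with 0.76 ± 0.19 and an edgeR adjusted p of 0.204, and it passed in DESeq2 (adjusted p = 0.0235). Tgfb2 was at 34.5, 29.2 and 30.5 CPM in Dsp_het libraries, against 21.0, 26.9 and 19.5 CPM in control libraries. Its libraries were apart too (0.49 ± 0.15, edgeR adjusted p = 0.255), as were those of Tgfb3 (0.84 ± 0.27) and Ltbp1 (0.56 ± 0.17). In all, 5 of the 10 genes were higher and 1 lower in every Dsp_het library, against 10.9% and 6.76% of all genes tested. The other 4 overlapped between groups, with log2 fold changes of 0.34 ± 0.24 for Tgfbr1, 0.38 ± 0.14 for Tgfbr2, 0.54 ± 0.62 for Ltbp2 and 0.21 ± 0.13 for Ltbp4. Without Dsp_het library 1 the Tgfbr1 value was -0.009. The median over the 10 genes was 0.51, against -0.01 over all genes tested.

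The class mix differed between the same libraries. Fibroblast-like cells gave 19.5% ± 12.4 of UMIs in Dsp_het and 9.81% ± 0.298 in control libraries, epicardial-like cells 13.9% ± 4.31 in Dsp_het and 5.03% ± 1.75 in control libraries, and endothelial-like cells 58.4% ± 11.7 in Dsp_het and 72.3% ± 4.23 in control libraries. By library, the fibroblast-like share was 33.7%, 11.7% and 12.98% in Dsp_het libraries and 9.88%, 10.1% and 9.49% in control libraries, so all Dsp_het libraries were above the control libraries, library 1 by far the most. The epicardial-like share was 14.4%, 9.39% and 18.0% in Dsp_het libraries and 3.27%, 5.07% and 6.76% in control libraries, without overlap. The endothelial-like share was 49.4%, 71.6% and 54.0% in Dsp_het libraries and 76.7%, 71.8% and 68.3% in control libraries, and Dsp_het library 2 lay inside the control range. The 3 large classes were then put together at 1 fixed mix in every library (72.0% endothelial-like, 17.3% fibroblast-like and 10.7% epicardial-like), a choice made after the data were seen that carries no test. At this mix Ltbp3 averaged 46.0 ± 7.19 CPM in Dsp_het and 40.7 ± 6.77 CPM in control libraries, a log2 ratio of 0.18. As measured, it averaged 56.4 ± 15.5 CPM in Dsp_het and 26.6 ± 3.19 CPM in control libraries, a log2 ratio of 1.08. The log2 ratio of Tgfb1 was -0.05 at the fixed mix and -0.39 as measured, that of Tgfb2 0.03 and 0.46, that of Tgfb3 0.14 and 0.85, and that of Tgfbr3 0.17 and 0.73. In the same order, the log2 ratio was 0.27 and 0.45 for Tgfbr2, 0.35 and 0.50 for Ltbp1, 0.04 and 0.37 for Tgfbr1, 0.03 and 0.18 for Ltbp4, and -0.61 and 0.50 for the sparse Ltbp2, whose sign turned. Groups did not overlap for 7 of the 10 genes as measured (6 higher, 1 lower) and for 1 at the fixed mix (Ltbp1, 33.2 ± 4.15 CPM in Dsp_het and 26.1 ± 3.54 CPM in control libraries). Over all 12996 genes, 11.5% were higher and 7.76% lower in every Dsp_het library as measured, and 3.55% and 3.49% at the fixed mix.

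**Figure D4:**
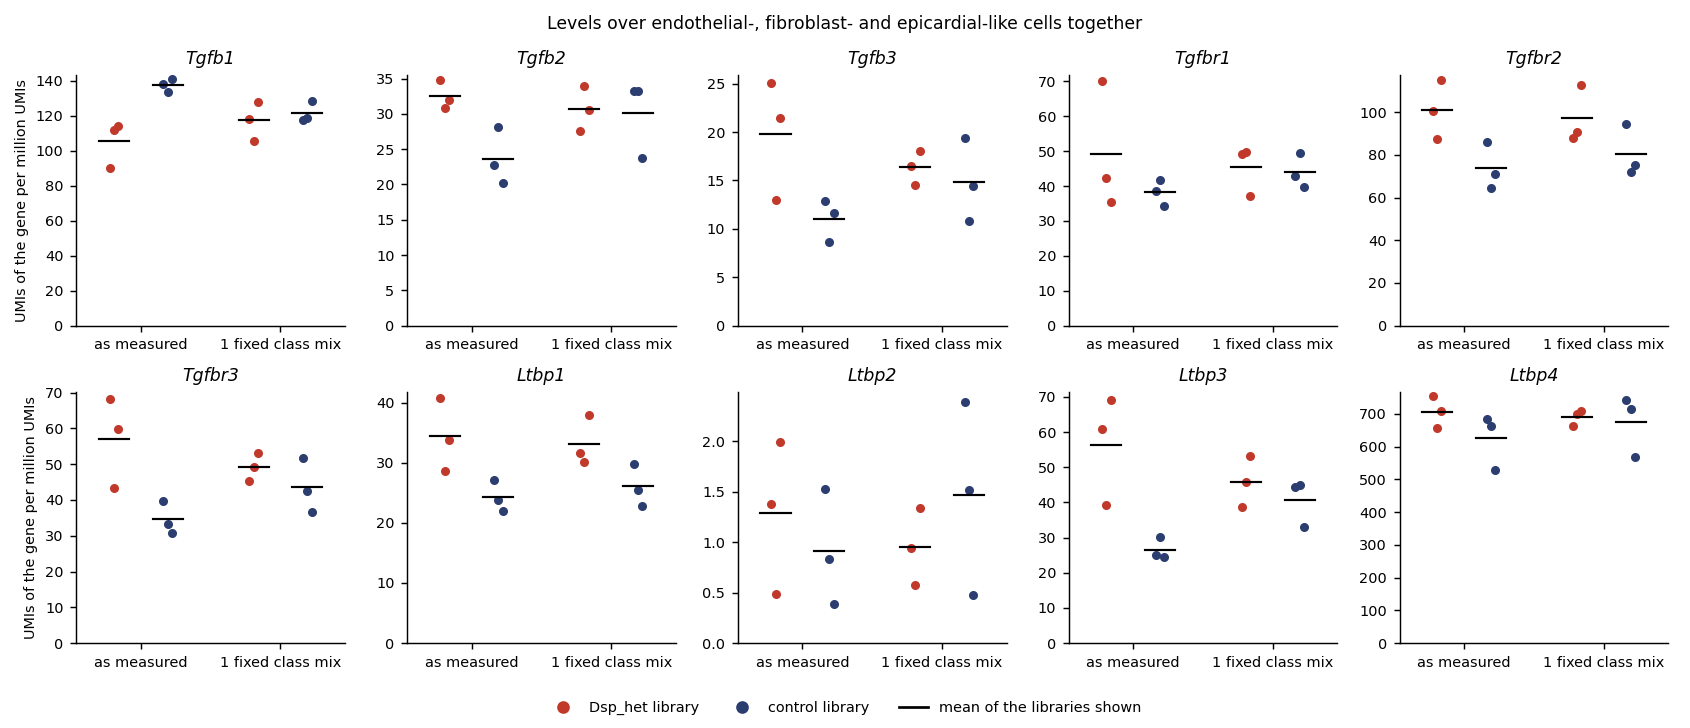
Level of each gene (y axis, CPM) over endothelial-like, fibroblast-like and epicardial-like cells together, with the class mix as measured (left pair) and at 1 fixed mix (right pair), 1 point per library, Dsp_het (red) left of control (blue), and a line at the mean. Groups were apart for 7 genes as measured and for 1 gene, Ltbp1, at the fixed mix.

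Within endothelial-like cells, 1 of the 9 genes tested, Ltbp1, had groups that did not overlap, and none passed. In edgeR 0 of 11292 genes passed (0.0% called), with 522 (4.62%) at an unadjusted p under 0.05, and DESeq2 called 12 (0.106%). Ltbp1 was at 23.4, 25.7 and 31.4 CPM in Dsp_het libraries, against 21.0, 19.7 and 21.0 CPM in control libraries, with a log2 fold change of 0.36 ± 0.13 and an edgeR adjusted p of 0.998 (0.508 to 1.0 over the alternatives). Of all genes, 3.99% were higher and 3.81% lower in every Dsp_het library. Tgfbr2 (0.32 ± 0.15) and Ltbp3 (0.56 ± 0.31) overlapped between groups, as did Tgfb1 (-0.10 ± 0.11) and Tgfb2 (0.20 ± 0.17). Tgfb1 in these cells was at 156, 139 and 162 CPM in Dsp_het libraries, against 160.4, 158 and 169 CPM in control libraries. The 17 epicardial markers, of which 1 was at 0, summed to 88.1 to 121 CPM in Dsp_het libraries and 59.4 to 72.1 CPM in control libraries in endothelial-like cells, and their part in these values was not tested.

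In fibroblast-like cells none of the 9 genes tested passed. Their log2 fold changes were all positive, with a median of 0.31, against -0.001 over all genes tested. The 9 values come from the same libraries, and that of Tgfb2 turned to -0.055 with a library left out. In edgeR 1 of 8526 genes was called (0.0117%) and in DESeq2 2 (0.0235%), and 3.33% had an unadjusted p under 0.05. Ltbp3 was at 108, 129 and 124 CPM in Dsp_het libraries, against 97.9, 97.7 and 87.1 CPM in control libraries, with no overlap, a log2 fold change of 0.34 ± 0.15 and an edgeR adjusted p of 1.0. Tgfbr3 was at 135, 137 and 138 CPM in Dsp_het libraries, against 134, 131 and 88.5 CPM in control libraries. These groups were apart by little, and control library 3 alone was low (0.23 ± 0.17). Of all genes, 3.88% were higher and 4.13% lower in every Dsp_het library. On the log2 scale Tgfbr2 differed by 0.33 ± 0.16, Tgfb1 by 0.56 ± 0.40 and Tgfb2 by 0.09 ± 0.20. The 17 endothelial markers, none at 0, summed to 797 to 893 CPM in Dsp_het libraries and 1421 to 1707 CPM in control libraries in fibroblast-like cells, and their part was not tested. Dsp_het library 1 gave 626 of the 836 fibroblast-like cells of its group.

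In epicardial-like cells all 8 genes tested overlapped between groups. In edgeR 0 of 8302 genes passed (0.0% called) and DESeq2 called 0, with 274 genes (3.3%) at an unadjusted p under 0.05 in edgeR. Of all genes, 3.38% were higher and 5.1% lower in every Dsp_het library. Ltbp3 was at 128, 174 and 189 CPM in Dsp_het libraries, against 200.4, 205 and 134 CPM in control libraries (-0.07 ± 0.21). Tgfb2 was at 54.9, 73.7 and 42.2 CPM in Dsp_het libraries, against 117, 62.7 and 41.7 CPM in control libraries (-0.24 ± 0.32). Control library 1, with 48 epicardial-like cells, alone was high for Tgfb2. Tgfbr3 gave 0.25 ± 0.20. Leaving out a library turned the sign of Ltbp3 (up to 0.091) and, without control library 1, of Tgfb2 (0.22).

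In macrophage-like cells, 2 Dsp_het and 3 control libraries had at least 20 cells, since Dsp_het library 1 had 2. None of the 4 genes tested passed, nor did any of 6019 genes in edgeR (0.0% called, 6.13% with an unadjusted p under 0.05), while DESeq2 called 3 (0.0498%). Ltbp4 was at 52.1 and 104 CPM in Dsp_het libraries, against 27.3, 34.8 and 45.2 CPM in control libraries, with no overlap and a log2 fold change of 1.13 ± 0.32 (edgeR adjusted p = 0.610, and 0.0706 to 1.0 over the alternatives). With these 5 libraries, 15.3% of genes were higher and 8.17% lower in every Dsp_het library. The 17 endothelial markers, none at 0, summed to 3202 to 5745 CPM in Dsp_het libraries and 1451 to 3486 CPM in control libraries in macrophage-like cells. There the 17 epicardial markers, 8 at 0, summed to 66.3 to 83.3 CPM in Dsp_het libraries and 5.84 to 29.2 CPM in control libraries, and the 14 macrophage markers, none at 0, to 31560 to 41950 CPM in Dsp_het libraries and 43690 to 44890 CPM in control libraries. Neither sum overlapped between groups, and their part in the Ltbp4 values was not tested.

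**Figure D5:**
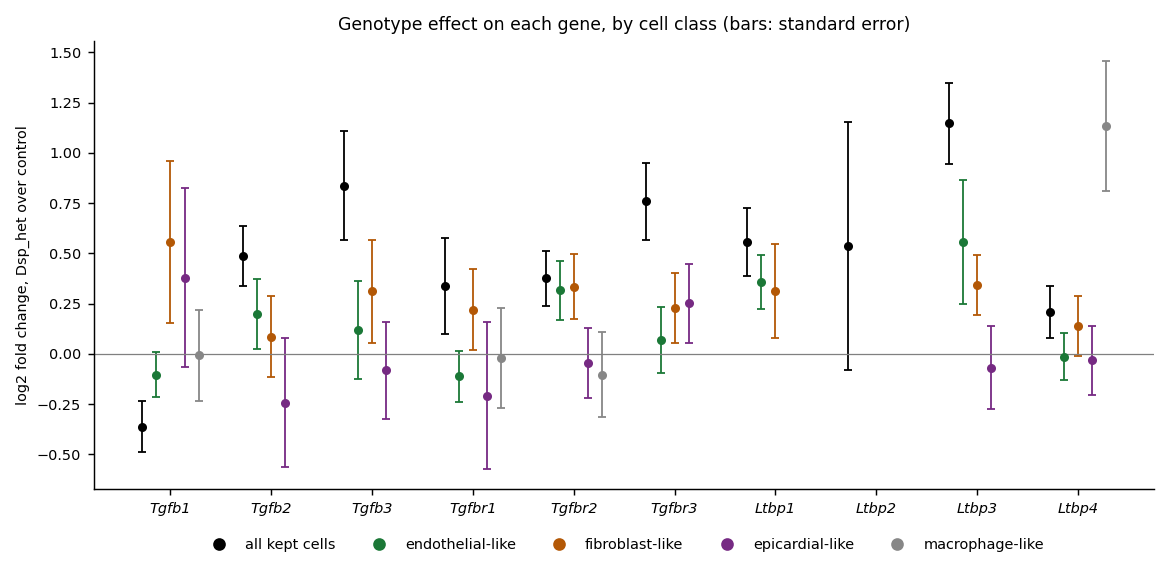
Log2 fold change of Dsp_het over control with its standard error for each gene over all kept cells and within classes, from edgeR, where a gene was tested. Over all kept cells Ltbp3 stood at 1.15 and Tgfb1 at -0.36, and within fibroblast-like cells Ltbp3 stood at 0.34 and Tgfb1 at 0.56.

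Whether the genotype difference itself differed between classes was tested with a class by genotype term, and none of the 10 genes passed. For fibroblast-like minus endothelial-like cells, edgeR called 3 of 12206 genes (0.0246%) and DESeq2 1 (0.00819%), with 4.74% at an unadjusted p under 0.05. For epicardial-like minus endothelial-like cells edgeR called 3 of 11976 genes (0.0251%) and DESeq2 2 (0.0167%), with 5.47% at an unadjusted p under 0.05. For epicardial-like minus fibroblast-like cells both called 0 of 9631 (0.0%), with 385 (4.0%) at an unadjusted p under 0.05 in edgeR. The difference for Tgfb1 was 0.61 ± 0.34 in fibroblast-like minus endothelial-like cells (edgeR adjusted p = 1.0). That for Ltbp3 was -0.60 ± 0.26 in epicardial-like minus endothelial-like cells (edgeR adjusted p = 0.870).

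Other genes of the pathway were counted in 4 lists, and none of their genes passed in edgeR in any of these 8 comparisons. Sums over all kept cells mix cell classes, whose shares of UMIs differed between the groups. The lists were not put at the fixed mix, and the part of the class mix in their values was not tested. Of 27 activators and extracellular controls, 21 were higher and 3 lower in fibroblast-like than in endothelial-like cells in every library. Over all kept cells, 27 activators and extracellular controls were tested. Of these, 11 were higher and 1 lower in every Dsp_het library (10.9% and 6.76% of all genes). The median log2 fold change of the 27 genes was 0.74, and DESeq2 called 4 of the 27 (2.95% of all genes). Among them Thbs2, a matricellular thrombospondin, was at 66.6 ± 18.2 CPM in Dsp_het and 28.01 ± 3.29 CPM in control libraries (edgeR adjusted p = 0.131). Itgav, the integrin subunit shared by receptors that release latent TGF-beta, was at 27.0 ± 4.86 CPM in Dsp_het and 16.6 ± 1.75 CPM in control libraries (edgeR adjusted p = 0.164). Of 33 target genes, 4 were higher and 1 lower in every Dsp_het library, near the same shares of all genes, with a median of 0.45. DESeq2 called 3 of the 33, against 2.95% of all genes. Timp1, a metalloproteinase inhibitor, was at 28.2 ± 11.9 CPM in Dsp_het and 9.91 ± 2.00 CPM in control libraries (edgeR adjusted p = 0.180), and Col4a1, a basement membrane collagen, at 829.6 ± 83.4 CPM in Dsp_het and 1132 ± 113 CPM in control libraries (edgeR adjusted p = 0.207). Of 25 SMAD genes 2 were higher and 2 lower, also near the shares of all genes. Smad3, which carries the receptor signal to the nucleus, was at 6.89 ± 1.24 CPM in Dsp_het and 3.51 ± 0.0361 CPM in control libraries (edgeR adjusted p = 0.183), and Smad1, which carries bone morphogenetic protein signals, at 70.0 ± 6.53 CPM in Dsp_het and 87.0 ± 6.97 CPM in control libraries (edgeR adjusted p = 0.276). Of 12 accessory receptors 1 was higher and 1 lower, near those shares as well. These were Pmepa1, which restrains SMAD signalling, at 201 ± 64.2 CPM in Dsp_het and 126 ± 6.13 CPM in control libraries (edgeR adjusted p = 0.287), and the co-receptor Nrp1, at 504 ± 46.6 CPM in Dsp_het and 649 ± 81.4 CPM in control libraries (edgeR adjusted p = 0.280).

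Within endothelial-like, fibroblast-like and epicardial-like cells, 9 to 28 genes of each list were tested. Of these, 0 to 2 per list were higher and 0 to 2 lower in every Dsp_het library. Of all genes tested in these classes, 3.38% to 3.99% were higher and 3.81% to 5.1% lower. Some of the genes nearest the threshold are named although they missed it in edgeR. In endothelial-like cells the contractile gene Acta2 was at 0.324 ± 0.244 CPM in Dsp_het and 2.83 ± 1.13 CPM in control libraries (edgeR adjusted p = 0.363) and Tagln at 1.49 ± 0.545 CPM in Dsp_het and 4.61 ± 2.02 CPM in control libraries (edgeR adjusted p = 0.733). The Dsp_het mean of Acta2 was below the floor of 3 UMIs per library (0.454 to 0.628 CPM), so this value is limited by depth. The 11 pericyte markers, none at 0, summed to 49.6 to 204 CPM in Dsp_het libraries and 89.7 to 236 CPM in control libraries in endothelial-like cells, and their part in these values was not tested. In fibroblast-like cells Junb, an immediate early factor, was at 2002 ± 156 CPM in Dsp_het and 1427 ± 271 CPM in control libraries, Timp1 at 74.4 ± 10.4 CPM in Dsp_het and 45.8 ± 13.6 CPM in control libraries and Smad7, the inhibitory SMAD, at 91.8 ± 15.9 CPM in Dsp_het and 64.3 ± 17.9 CPM in control libraries (edgeR adjusted p = 1.0 each). In macrophage-like cells Eng, an endothelial co-receptor for TGF-beta family ligands, was at 156 ± 12.9 CPM in Dsp_het and 40.2 ± 13.2 CPM in control libraries (edgeR adjusted p = 0.0670). DESeq2 called 1 of the 5 accessory receptors tested in this class, and 3 of all 6019 genes (0.0498%). Eng is itself in the endothelial marker list whose sums in these cells are given above.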

How the data were processed

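The members, marker lists and gene lists were chosen with earlier results of these data known. Raw UMI counts per gene and barcode were deposited by the authors as 1 matrix of 18283 barcodes, and the number after each barcode was matched to the sample number in the labels. The submitters' processing notes name GRCm38 and Seurat; the aligner is not named there. Barcodes with at least 500 UMIs, 200 genes and at most 20% mitochondrial UMIs were kept (16338). Of these, 3677 copies of a barcode whose UMIs lay mostly (at least 0.5) in another library were left out, since shared barcodes would count 1 cell in several libraries.

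Cells were clustered with scanpy 1.11.5 (2000 variable genes without the 10 genes studied, 30 components, 15 neighbours, Leiden resolution 1) into 18 clusters and named from marker lists. After the clusters were seen, leading genes were required to occur in at least 10% of a cluster's cells. The 642 cells of 1 shallow cluster stayed unnamed. Scrublet called 53 cells (0.419%), too few to have worked, and no doublets were removed.

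Counts were summed per class and library (at least 20 cells) and tested with edgeR 4.0.16 (R 4.3.3; TMM, filterByExpr minimum count 10, quasi-likelihood test, Benjamini-Hochberg over all genes, threshold 0.05); the difference between classes had the library as a block. Pericyte-like and cycling cells had fewer than 2 Dsp_het libraries of 20 cells and were tested only with all kept barcodes (3 of the 10 genes each, none of the 3 called). The 171 cardiomyocyte-like cells were not tested. DESeq2 1.42.0, RLE scaling, other filters and clusterings, and leaving out each library were the alternatives. Scripts were tested on simulated data. Gene overlaps come from GENCODE: Tgfb3 overlaps Ttll5 on the opposite strand, and reads of overlapping genes could be shared if strand was not used. Genes named from the lists were up to 6 per list that passed or otherwise the 2 with the smallest p, of which some are printed and others are not reported here. Replicate numbers were not used to pair the samples, since the labels do not say that a number marks a shared litter, batch or day.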

Additional observations from a re-analysis of the deposited data

How the results depend on the processing

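No gene of the 10 passed in any class or in any difference between classes under any alternative. Over all kept cells, where 0 passed, DESeq2 called 2 (Ltbp3 and Tgfbr3), testing with no filter on low counts called 1 (Ltbp3), and leaving out each library called 0 to 1. Over all genes, DESeq2 called 383 of 12996 and testing with no filter called 65 of 20056. With the replicate number as a block, 0 passed in each comparison where it was fitted. Same-numbered libraries had correlations of 0.02, -0.08 and -0.06 in their deviations from the group means over all kept cells. With 3 libraries per group these values cannot show whether a shared number marks a shared litter, batch or day. Of 967 alternative fits over 68 pairs of gene and comparison, 70 had the opposite sign, 53 of them with a library left out. Among the log2 fold changes printed above, leaving out a library turned Tgfbr1 over all kept cells (-0.009 to 0.51), Tgfb2 in fibroblast-like cells (-0.055 to 0.30) and epicardial-like cells (-0.63 to 0.22), and Ltbp3 in epicardial-like cells (-0.27 to 0.091). Calls over all genes with a library left out ran from 0 to 154 over all kept cells (154 without Dsp_het library 2), and from 0 to 11 in endothelial-like, 0 to 6 in fibroblast-like, 0 to 5 in epicardial-like and 0 to 15 in macrophage-like cells (15 without Dsp_het library 2). They ran from 0 to 15 for fibroblast-like minus endothelial-like, 1 to 23 for epicardial-like minus endothelial-like and 0 to 1 for epicardial-like minus fibroblast-like cells. The count of 8 genes higher in fibroblast-like than endothelial-like cells held at 8 or 9 in every alternative. The endothelial-like share of Tgfb1 UMIs was 66.3% at clustering resolution 0.5 and 78.9% to 84.0% elsewhere. At resolution 0.5, clusters of 2010 and 514 cells stayed unnamed, and the endothelial marker list scored best in both. Depth limits Ltbp2 (62 UMIs), Tgfb3 in macrophage-like cells and Acta2 in endothelial-like cells.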
